A study of Mus musculus with 4 samples.

Results

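Genes that encode folding helpers of the endoplasmic reticulum (ER), together with Xbp1, were followed across 4 RNA-seq libraries of macrophages. The members were 10 genes chosen by name (Xbp1, Hspa5, Hsp90b1, Calr, Pdia4, Pdia6, Dnajb9, Herpud1, Sdf2l1 and Manf) out of 54532 genes in the table of read counts, and all 10 were among the 13715 genes that had at least 10 reads in at least 1 library. The cells were WT peritoneal macrophages of the mouse, drawn into the peritoneum of BALB/c mice by thioglycollate according to the methods of the study. After pretreatment with DMSO or with CH223191, an antagonist of the aryl hydrocarbon receptor (AHR), they were kept in normal medium (0% 4T1) or in 30% medium conditioned by 4T1 mouse breast cancer cells (4T1-CM). Every culture therefore held either DMSO, the solvent, or 10 µM CH223191. Each of the 4 combinations is 1 library, with no replicate. The spread between cultures is therefore not known, and each interval below is a 95% interval of counting error between 2 libraries. How many animals gave the cells of a library, and how long they stayed in the medium, are not given in the sources used here.

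Proteins meant for secretion or for membranes fold in the ER, where chaperones hold unfinished chains and disulfide isomerases form their bonds. When unfolded protein builds up, the sensors IRE1, PERK and ATF6 set off the unfolded protein response (UPR): IRE1 cuts Xbp1 mRNA so that it encodes an active transcription factor, ATF6 is released as a factor of its own, and PERK slows translation and favours ATF4. XBP1 and ATF6 are known to raise the genes of ER chaperones and of ER-associated degradation (ERAD). Macrophages, which secrete cytokines and lysosomal enzymes, use this machinery in their normal state too.

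The libraries held between 15535405 and 17557127 reads, and levels are given as CPM, a gene's reads relative to the size of its library after TMM scaling. All 7 macrophage markers had reads in each library, and they summed to 14028 (DMSO) and 18261 CPM (CH223191) in normal medium and to 37499 and 40034 CPM in 4T1-CM, most of it from Lyz2 at 11888, 15185, 32957 and 35572 CPM. The log2 ratios of the 7 markers to 4T1-CM ran from 0.41 for Mertk to 2.46 for Fcgr1 with DMSO and from 0.07 for Cd68 to 1.83 for Fcgr1 with CH223191. Of 6 markers of plasma cells, a cell type rich in ER, Jchain had at most 4 reads, Mzb1 and Tnfrsf17 at most 1 and Igha 0 in every library. The summed level of that list ranged from 340 to 391 CPM in normal medium and from 716 to 749 CPM in 4T1-CM, nearly all of it from Sdc1. Fibroblast markers summed to 63.0 and 30.1 CPM in normal medium and to 149 and 127 CPM in 4T1-CM, with Lum at 0 to 3 reads, and epithelial markers to at most 1.35 CPM. The part of the fibroblast genes in the results below was not tested. B cell markers stayed at or under 1.17 CPM, T cell markers at or under 1.45 CPM and mast cell markers at or under 0.185 CPM. Neutrophil markers went from 6.34 and 12.5 CPM in normal medium to 32.3 and 25.8 CPM in 4T1-CM, all but a trace of it from S100a8, with Ly6g and S100a9 at 0 reads. Their part was not tested either.

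The ER stress response element (ERSE) through which ATF6 and XBP1 are known to act has the letters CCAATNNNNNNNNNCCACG, and it was looked for on both strands from 250 bases before to 50 bases after the RefSeq start of each gene (build GRCm38.p6). Of 9 members with a promoter in the table, 4 held it: Hspa5, Hsp90b1, Calr and Pdia6, against 39 of 32851 promoters of all genes, which is 0.119%. Hspa5, Hsp90b1 and Calr are textbook targets of the element. Manf had no entry. The windows are printed below, as the genes that carry the element include 3 of the 4 that were lowest in 4T1-CM. Sdf2l1, the lowest of these 4, does not carry it. Hsp90b1, which does, was at log2 ratios of -0.39 with DMSO and -0.22 with CH223191. Whether the element bears on these levels was not tested. The windows show the match in capitals and are read 5′ to 3′ along the gene. They lie at chr2:34772005-34772063 on the plus strand for Hspa5, chr8:84847055-84847113 on the minus strand for Calr, chr10:86705618-86705676 and chr10:86705513-86705571 on the minus strand for Hsp90b1, and chr12:17266471-17266529 on the plus strand for Pdia6.
Hspa5: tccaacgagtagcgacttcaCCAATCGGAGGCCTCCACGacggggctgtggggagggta
Calr: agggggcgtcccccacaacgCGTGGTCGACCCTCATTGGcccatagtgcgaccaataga
Hsp90b1, first: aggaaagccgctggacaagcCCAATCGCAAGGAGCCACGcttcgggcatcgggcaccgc
Hsp90b1, second: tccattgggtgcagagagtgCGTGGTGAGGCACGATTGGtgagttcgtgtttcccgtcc
Pdia6: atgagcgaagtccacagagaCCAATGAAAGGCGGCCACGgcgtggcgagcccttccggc

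The first base of the match lay 65 bases before the start in Hspa5, 98 in Pdia6 and 162 in Calr, while Hsp90b1 held 2 matches at 212 and 107 bases. In Calr and in the second match of Hsp90b1 the element runs against the gene, so the capitals show its reverse complement. ERSE-II, with the letters ATTGGNCCACG, was present in 12 promoters of all genes (0.0365%), among them that of Herpud1 at chr8:94386357-94386407 on the plus strand, where it is shown in capitals because this gene behaved unlike those above.
Herpud1: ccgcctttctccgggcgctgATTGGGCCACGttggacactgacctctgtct

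TGACGTG, a core bound by XBP1 and ATF6, occurred in 661 promoters (2.01%) and among the members in Hspa5 alone. The promoters of Xbp1, Pdia4, Dnajb9 and Sdf2l1 held none of these 3 strings in this window.

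Xbp1 itself is the one member whose mRNA is remodelled by a UPR sensor. IRE1 removes 26 bases from its coding sequence, which changes the reading frame. They are shown here in capitals within exon 4 of the transcript Xbp1-201, at chr11:5524279-5524304 on the plus strand (GRCm38), because the counts below join both forms of the mRNA.
Xbp1: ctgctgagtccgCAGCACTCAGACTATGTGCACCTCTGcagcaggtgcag

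A table of reads per gene does not tell the spliced form from the unspliced one, so the Xbp1 values concern the sum of both and not the activity of IRE1.

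Xbp1 was nearly level across the 4 conditions. In normal medium its reads numbered 2187 (DMSO) and 2135 (CH223191), and in 4T1-CM 2273 and 2016, which are 137, 134, 130 and 124 CPM. The lowest library was thus the one with both treatments, and the highest the one with neither. 4T1-CM shifted Xbp1 by a log2 ratio of -0.08 with DMSO (interval -0.16 to 0.01) and of -0.11 with CH223191 (-0.20 to -0.02), which is -0.01 relative to genes of like length. CH223191 shifted it by -0.03 in normal medium (-0.12 to 0.06) and by -0.07 in 4T1-CM (-0.15 to 0.02).

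Hspa5 encodes BiP, the Hsp70 chaperone of the ER, which also holds the UPR sensors inactive. Its level was 906 (DMSO) and 839 CPM (CH223191) in normal medium and 499 and 453 CPM in 4T1-CM, from 7354 to 14442 reads a library. Both 4T1-CM libraries lay below both normal medium libraries. The log2 ratio was -0.86 with DMSO (-0.90 to -0.82), 1.82-fold lower, and -0.89 with CH223191 (-0.93 to -0.85), 1.85-fold lower. The ratio of Hspa5 to Xbp1 CPM went from 6.60 and 6.25 in normal medium to 3.84 and 3.65 in 4T1-CM. In bulk libraries such as these, fewer cells that express a gene and less of its RNA in each cell cannot be told apart.

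**Figure D1:**
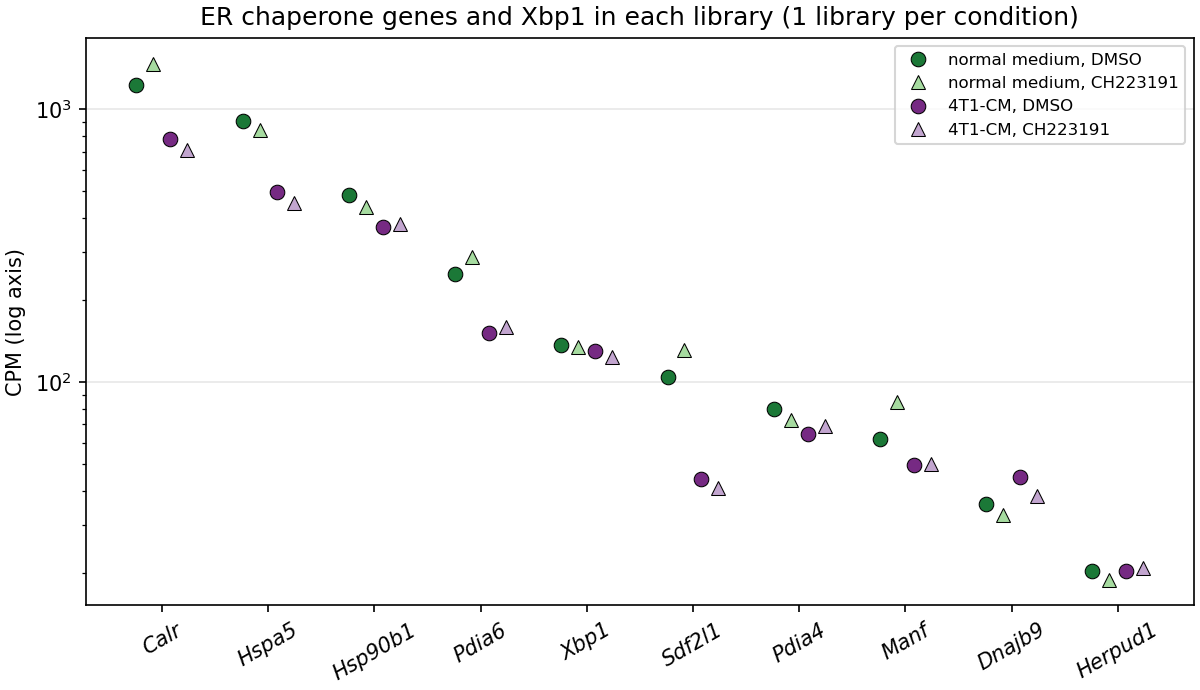
Level of each of the 10 genes in CPM (log axis) in each of the 4 libraries, 1 point per library, with circles for DMSO, triangles for CH223191, green for normal medium and purple for 4T1-CM. Calr, Hspa5, Pdia6 and Sdf2l1 show both purple points well below both green ones, as do Hsp90b1, Pdia4 and Manf by less, while Xbp1 is nearly level and Dnajb9 higher in 4T1-CM.

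The plot of levels by library shows that the pattern of Hspa5 recurred in other chaperones. Calr encodes calreticulin, the lectin that retains glycoproteins in the ER until they are folded and buffers its calcium. It was the most abundant member, at 1228 (DMSO) and 1472 CPM (CH223191) in normal medium and 778 and 707 CPM in 4T1-CM. 4T1-CM libraries were 1.58-fold lower with DMSO (log2 ratio -0.66, interval -0.69 to -0.63) and 2.08-fold lower with CH223191 (-1.06, -1.09 to -1.02). Hsp90b1 encodes GRP94, the Hsp90 of the ER, which folds integrins and Toll-like receptors. It was at 484, 439, 370 and 378 CPM in the same order of libraries, so both 4T1-CM libraries were again the lower ones, by log2 ratios of -0.39 (-0.44 to -0.34) and -0.22 (-0.27 to -0.17). Of the 50-base words of Hsp90b1 transcripts, 9.75% also occur in other annotated genes, which had at most 57 reads in any library.

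The protein disulfide isomerases, which form and rearrange disulfide bonds, did not all show the same size of difference. Pdia6 was at 248 (DMSO) and 287 CPM (CH223191) in normal medium and 152 and 159 CPM in 4T1-CM. Its log2 ratio was -0.71 with DMSO (-0.78 to -0.64) and -0.85 with CH223191 (-0.92 to -0.78), close to that of Hspa5. Pdia4 was at 80.0, 72.6, 64.6 and 69.0 CPM, and its log2 ratio was -0.31 with DMSO (-0.42 to -0.19) but -0.07 with CH223191, where the interval of -0.19 to 0.05 holds 0.

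Sdf2l1, a partner of BiP and of ER J-domain proteins that keeps misfolded chains soluble, had the lowest ratios of the 10. In normal medium it counted 1662 (DMSO) and 2085 reads (CH223191), against 770 and 663 reads in the 4T1-CM libraries, or 104, 131, 44.0 and 40.8 CPM. 4T1-CM thus went with a 2.37-fold lower level in DMSO (log2 ratio -1.24, interval -1.37 to -1.12) and a 3.21-fold lower level with CH223191 (-1.68, -1.81 to -1.56). Manf encodes a small secreted protein of the ER that binds BiP and is released when ER calcium falls. In normal medium it was at 61.6 (DMSO) and 84.8 CPM (CH223191), and at 49.47 and 49.98 CPM in 4T1-CM. The library in normal medium with CH223191 stood above the other 3, so the log2 ratio was -0.32 with DMSO (-0.45 to -0.18) and -0.76 with CH223191 (-0.89 to -0.64). The Manf locus as annotated spans Rbm15b and overlaps Dcaf1, which had 416 to 593 and 189 to 374 reads a library, and it is not stated whether counting used the strand.

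Dnajb9 and Herpud1, both classical targets of the UPR, did not follow the chaperones. Dnajb9 encodes ERdj4, a J-domain partner of BiP that directs proteins to degradation and restrains IRE1. It was at 35.8 (DMSO) and 32.4 CPM (CH223191) in normal medium and 44.8 and 38.1 CPM in 4T1-CM, so both 4T1-CM libraries were higher. Dnajb9 was the only member whose interval lay above 0 in both comparisons, with log2 ratios of 0.32 (0.16 to 0.48) and 0.23 (0.06 to 0.40). Of the 50-base words of Dnajb9 transcripts, 5.5% also occur in another annotated gene, Gm6568, whose reads are not given here. Herpud1, a membrane protein that assembles the ERAD complex, was at 20.3, 18.9, 20.3 and 20.8 CPM. Its log2 ratio was -0.00 with DMSO and 0.14 with CH223191, and with 300 to 355 reads a library the intervals, -0.22 to 0.22 and -0.09 to 0.37, leave room for a difference of either sign.

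**Figure D2:**
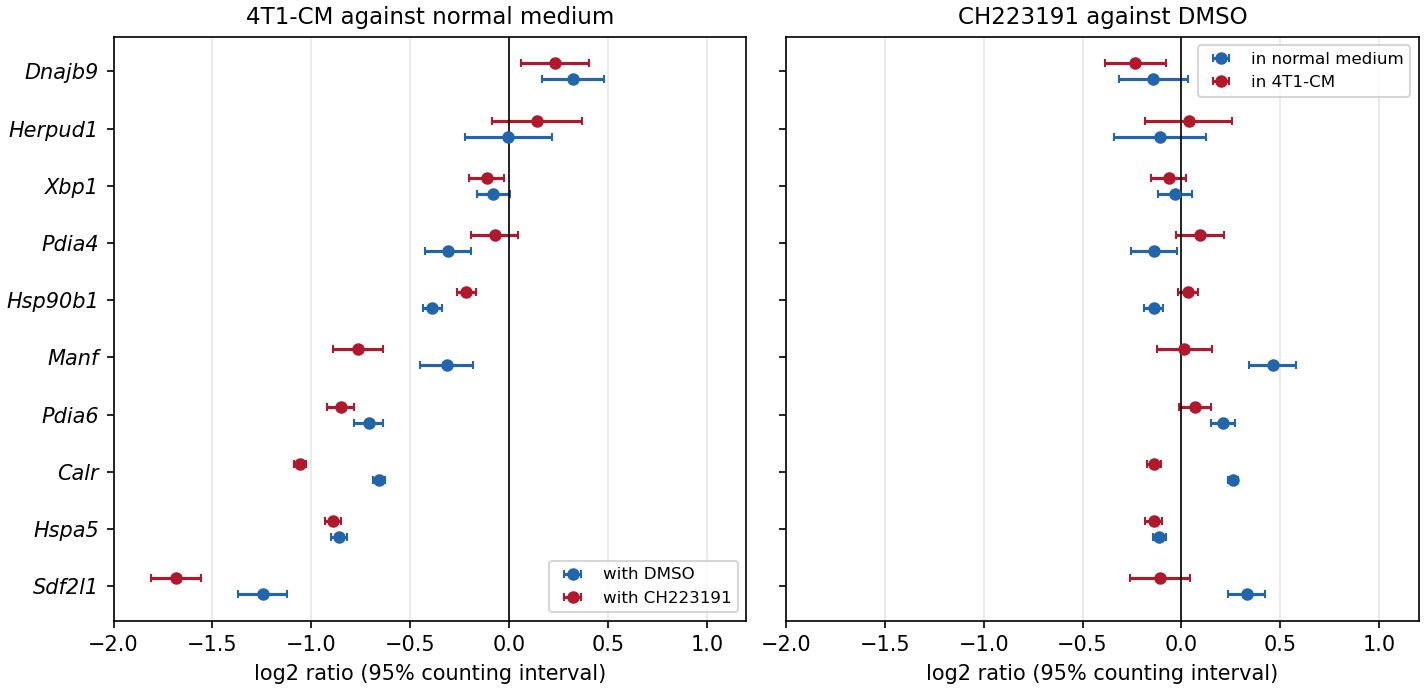
Log2 ratio of each gene (horizontal axis) with its 95% counting interval, for 4T1-CM against normal medium on the left and for CH223191 against DMSO on the right, with genes ordered by their mean ratio to 4T1-CM. On the left, 7 of 10 intervals lie wholly below 0 with DMSO and 7 with CH223191, where 30.3% and 31.6% of all genes tested do, and Dnajb9 alone of the 10 lies above 0 in both.

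By counting interval, 7 members lay below 0 and 1 above it in each comparison. At this depth such intervals exclude 0 for small ratios: of all genes tested 30.3% lay below and 29.7% above 0 with DMSO, and 31.6% and 31.3% with CH223191, and of the 8323 genes that averaged 10 CPM or more, 39.9% and 40.4% lay below. Counted at a fixed size, Sdf2l1 was the 1 member at least 2-fold lower in 4T1-CM with DMSO, where 6.12% of all genes tested were, and Sdf2l1 and Calr were the 2 with CH223191, where 7.86% were. Relative to genes of like length Calr was at -0.95 with CH223191, which leaves Sdf2l1 alone at 2-fold. At 1.5-fold, 4 of 10 members were lower with DMSO (15.2% of all genes) and 5 with CH223191 (17.5%). The comparisons with DMSO and with CH223191 share no library. In both of them, 4 members were at least 1.5-fold lower (Hspa5, Calr, Pdia6 and Sdf2l1), against 9.6% of all genes, and 1 at least 2-fold lower (Sdf2l1), against 3.38%. No member was at least 1.5-fold higher in both, where 13.9% of all genes were, or at least 2-fold higher, where 8.18% were. The median log2 ratio of the members was -0.35 with DMSO and -0.49 with CH223191, while that of all genes tested was 0.01 and 0.02. As a share of each library, the members took 0.339% (DMSO) and 0.346% of reads (CH223191) in normal medium and 0.214% and 0.202% of reads in 4T1-CM. Hspa5, Calr and Hsp90b1 made up 75.4% to 79.2% of those reads, so the sum mostly follows these 3.

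An additive model over the 4 libraries gives the only p-values of this design. It takes the effect of 4T1-CM to be the same with and without CH223191, and estimates the spread from what that leaves, with 1 residual degree of freedom. In edgeR's quasi-likelihood test of this kind, 5 members were lower in 4T1-CM at an adjusted p under 0.05, against 16.2% of all genes, and none was higher, against 16.4%. The adjusted p was 2.7e-05 for Sdf2l1, 0.000343 for Hspa5, 0.000717 for Calr, 0.001 for Pdia6 and 0.0136 for Manf. It was 0.0909 for Hsp90b1, 0.121 for Dnajb9, 0.273 for Pdia4, 0.582 for Xbp1 and 0.759 for Herpud1, none of which passed. DESeq2 with the same terms called 5 members lower and 0 higher, where it called 9.39% and 9.14% of the genes to which it gave an adjusted p.

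**Figure D3:**
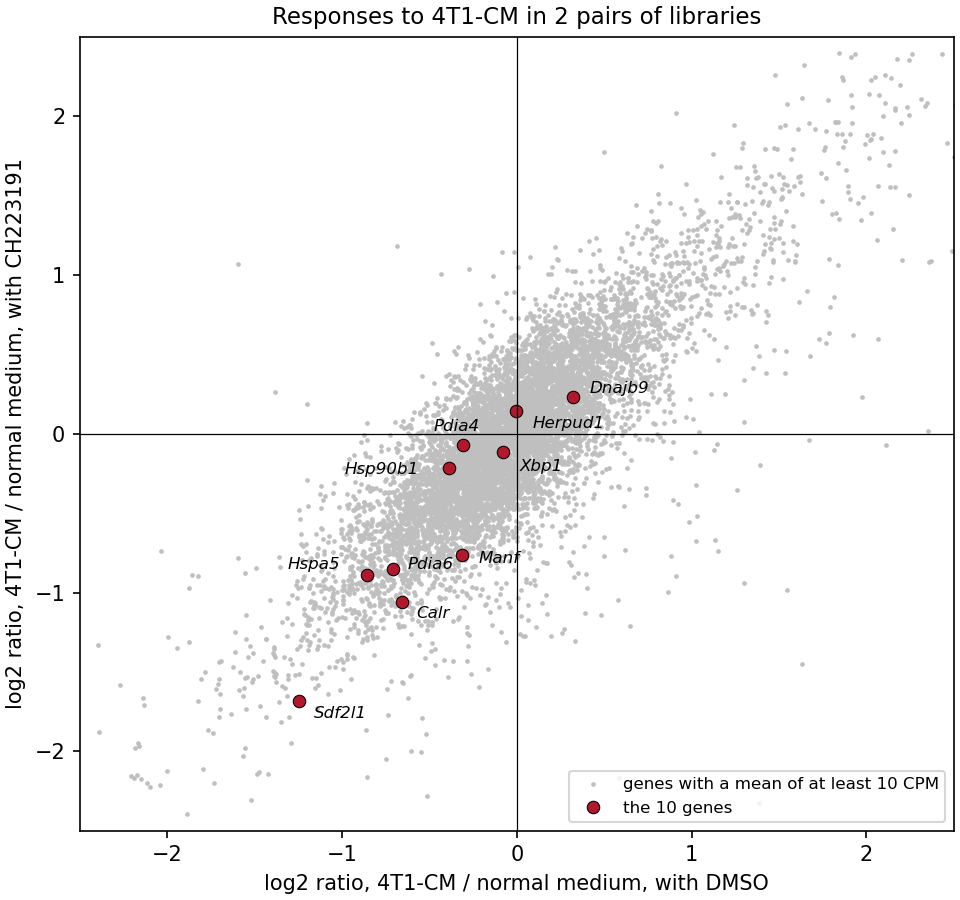
Log2 ratio of 4T1-CM to normal medium with CH223191 (vertical axis) against the ratio with DMSO (horizontal axis), for genes that averaged 10 CPM or more (grey, cropped at 2.5 either way) and the 10 genes (red). Sdf2l1 lies farthest from 0 among the 10 at -1.24 and -1.68, Hspa5, Calr and Pdia6 lie between -0.66 and -1.06 on both axes, and Xbp1, Pdia4 and Herpud1 lie within the dense centre.

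The plot of paired responses places Calr, Sdf2l1 and Manf below the line of equal ratios. The response to 4T1-CM with CH223191 minus that with DMSO was -0.40 on the log2 scale for Calr (interval -0.44 to -0.35), -0.44 for Sdf2l1 (-0.61 to -0.26), -0.45 for Manf (-0.63 to -0.26) and -0.14 for Pdia6 (-0.24 to -0.04). It was 0.17 for Hsp90b1 (0.11 to 0.24) and 0.24 for Pdia4 (0.07 to 0.40), which lie above that line. For Hspa5 the difference was -0.03 (-0.09 to 0.03). These intervals cover counting error in 4 libraries, and without replicates they do not test whether CH223191 alters the response.

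CH223191 against DMSO asked what AHR antagonism did within each medium. In normal medium the interval lay above 0 for 4 members, Manf at 0.46 on the log2 scale (0.34 to 0.58), Sdf2l1 at 0.33 (0.24 to 0.42), Calr at 0.26 (0.23 to 0.29) and Pdia6 at 0.21 (0.15 to 0.27). It lay below 0 for 3, Hsp90b1 at -0.14 (-0.19 to -0.09), Pdia4 at -0.14 (-0.26 to -0.02) and Hspa5 at -0.11 (-0.15 to -0.08). In 4T1-CM none lay above 0, and Dnajb9 at -0.23 (-0.39 to -0.08), Hspa5 at -0.14 (-0.19 to -0.10) and Calr at -0.14 (-0.17 to -0.10) lay below it. Of all genes tested, the interval lay above 0 for 21.0% and below it for 19.9% in normal medium, and for 13.3% and 13.5% in 4T1-CM. Hspa5 was the only member lower with CH223191 by its interval in both media, and Calr the only one whose intervals lay on opposite sides of 0.

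None of the 10 reached a 1.5-fold difference between CH223191 and DMSO. Of all genes tested, 10.6% passed it upward and 7.49% downward in normal medium, and 6.23% upward and 6.02% downward in 4T1-CM. In the additive edgeR fit no member passed for the inhibitor at an adjusted p under 0.05, where 0.0729% of all genes were higher and 0.00729% lower, nor at an unadjusted p under 0.05, where 4.08% and 2.33% were. The smallest adjusted p among the members in that edgeR fit was 0.831, for Manf. DESeq2 called 0 members as well, where it called 0.127% of genes higher and 0.00975% lower.

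Over all genes, the differences in normal medium went with gene length, and among the members Sdf2l1 was the one most altered by it. With all genes ordered by length and cut into 10 equal groups, the median log2 ratio of CH223191 to DMSO in normal medium ran from 0.23 in genes of at most 1223 bases to -0.10 in genes of at least 9472 bases, while in 4T1-CM the medians ran between -0.02 and 0.04. Sdf2l1, at 1108 bases the shortest member, was 0.10 above the median of genes of its length, where its own ratio was 0.33. Manf remained 0.43 above, Calr 0.22 and Pdia6 0.18. The length trend also entered both comparisons of media. Medians were highest in the longest genes, at 0.12 with DMSO and 0.27 with CH223191, and the lowest were -0.10 and -0.23. With CH223191, Sdf2l1 was at -1.47 and Calr at -0.95 relative to genes of like length. What gave the length trend was not tested.

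**Figure D4:**
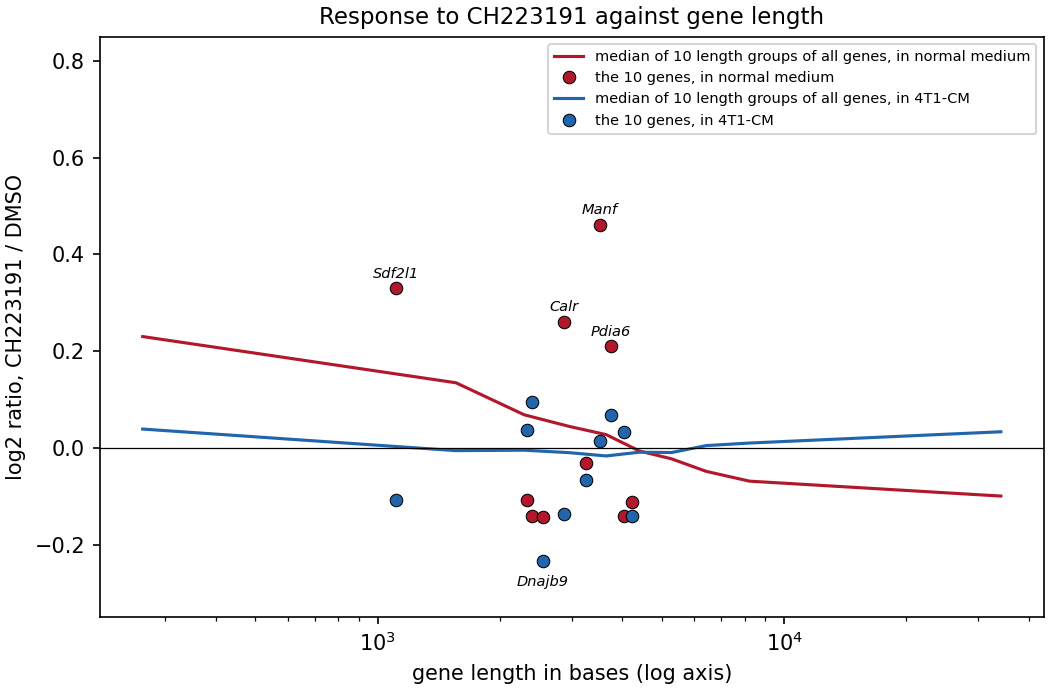
Log2 ratio of CH223191 to DMSO (vertical axis) against gene length in bases (log axis), in normal medium (red) and in 4T1-CM (blue), with points for the 10 genes and lines for the medians of 10 groups of all genes by length. The red line falls from 0.23 to -0.10 with length, and the red points of Manf, Calr, Pdia6 and Sdf2l1 lie above it.

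Levels between genes were compared per kilobase of gene length. This length is 1 value per gene as deposited with the counts, and which transcripts the cells made was not examined. Manf has 7 annotated transcripts and Sdf2l1 has 1, so the order below also depends on the annotation. In normal medium with DMSO the order was Calr at 426 CPM per kilobase, Hspa5 at 214, Hsp90b1 at 120, Sdf2l1 at 94.1, Pdia6 at 66.2, Xbp1 at 42.2, Pdia4 at 33.3, Manf at 17.5, Dnajb9 at 14.1 and Herpud1 at 8.71, and no neighbours in it had counting intervals that overlapped. With CH223191 in the same medium Sdf2l1 stood at 118 CPM per kilobase, above Hsp90b1 at 109. In 4T1-CM with DMSO, Pdia6 at 40.5, Xbp1 at 40.0 and Sdf2l1 at 39.7 CPM per kilobase could not be ordered within counting error, and Dnajb9 at 17.57 stood above Manf at 14.04. In 4T1-CM with CH223191, Xbp1 at 38.2 and Sdf2l1 at 36.8 could not be ordered, nor could Dnajb9 at 14.9 and Manf at 14.2. Calr was the highest and Herpud1 the lowest in each library.

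Other genes of ER folding were found on both sides. Of 29 such genes, 5 were at least 1.5-fold lower in both 4T1-CM comparisons and 3 higher, with medians of -0.00 and 0.01 on the log2 scale, and the additive edgeR fit called 7 lower and 4 higher. Among the lower ones were Hyou1, the large Hsp70 relative that resets BiP, at log2 ratios of -0.68 and -0.81, and Creld2 at -0.86 in both, named here after their values were seen. Fkbp2, a peptidyl-prolyl isomerase, went from 49.8 and 61.1 CPM in normal medium to 19.8 and 20.1 in 4T1-CM, log2 ratios of -1.33 with DMSO and -1.60 with CH223191. Erp29, an ER protein related to the disulfide isomerases, went from 263 and 276 to 123 and 127 CPM, log2 ratios of -1.10 and -1.13. Ero1l, the oxidase that passes electrons from the disulfide isomerases to oxygen, was higher instead, from 67.6 and 54.2 to 232 CPM in both 4T1-CM libraries, log2 ratios of 1.78 and 2.10. Fkbp11, also named after its values were seen, was higher by 2.37 with DMSO and 0.96 with CH223191, at 29 to 167 reads a library. P4hb, the founding disulfide isomerase and a subunit of collagen prolyl hydroxylase, was higher by 0.65 and 0.79 and at 1505 and 1540 CPM in 4T1-CM. Thus, among disulfide isomerases, P4hb was higher in both 4T1-CM comparisons, while Pdia6 was lower in both, as was Pdia3 at -0.29 and -0.23. Pdia5, with 36 to 59 reads a library, was at 0.46 with DMSO and 0.01 with CH223191.

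Of 19 genes of ERAD that were tested, 1 was at least 1.5-fold lower in both comparisons and 0 were higher, with medians of -0.13 and -0.17. That gene was Selenos, a selenoprotein of the retrotranslocation complex, at log2 ratios of -0.73 and -1.05. Edem2, which trims mannose from misfolded glycoproteins, was at -0.53 and -0.47, and Erlec1, a lectin of the same route, at 0.46 and 0.45. Herpud2, the paralogue of Herpud1, was at 0.19 and 0.50. Of 24 genes of ER import and glycosylation none was 1.5-fold different in both, and their medians were 0.02 and -0.24. Serp1 was at 0.39 and 0.54 and Stt3b, a catalytic subunit of the oligosaccharyltransferase, at 0.15 and 0.42. Sec61b and Sec61g, small subunits of the import channel, stood out in 1 library: Sec61g was at 35.3, 33.1 and 33.8 CPM in the libraries other than normal medium with CH223191 and at 80.2 CPM in that one, and Sec61b at 28.8 to 32.8 and at 69.8 CPM.

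Among 9 UPR sensors and their processing factors none was 1.5-fold different in both comparisons. Ern1, which encodes IRE1, the enzyme that splices Xbp1, was at log2 ratios of 0.42 (0.32 to 0.52) and 0.88 (0.77 to 0.99), whereas its substrate Xbp1 was at -0.08 and -0.11. Creb3l2 was at 0.48 and 0.31, Atf6b at -0.60 and -0.40 and Creb3 at -0.55 and -0.94, these 3 being membrane-bound transcription factors like ATF6. Of 9 genes of the PERK and ATF4 branch, 2 were at least 1.5-fold lower in both and 1 higher. Ddit3, which encodes CHOP, the factor tied to death under lasting ER stress, was at 23.6 and 28.0 CPM in normal medium and 8.97 and 11.02 in 4T1-CM (log2 ratios -1.39 and -1.34). Atf3 was at -0.73 and -0.76, while Sesn2 was at 0.74 and 0.79 and Asns, the asparagine synthetase, at 0.41 and 0.58. The ATF4 targets thus went in both directions.

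Chaperones outside the ER served for comparison. Of 14 cytosolic chaperones and their regulators, 1 was at least 1.5-fold lower in both 4T1-CM comparisons and 0 higher, with medians of -0.05 and -0.21. It was Bag3, a co-chaperone of Hsp70, at -0.88 and -0.80. Hsp90aa1, a cytosolic relative of Hsp90b1, was at 0.09 and 0.08, where Hsp90b1 was at -0.39 and -0.22. St13 was at -0.39 and -0.53 and Hsph1 at -0.06 and 0.23. Of 6 mitochondrial chaperones and proteases none was 1.5-fold different in both, with Hspd1 at -0.56 and -0.48, Hspe1 at -0.33 and -1.15, Trap1 at 0.17 and -0.14 and Clpp at 0.07 and -0.22. Differences between these lists and the members were not tested.

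**Figure D5:**
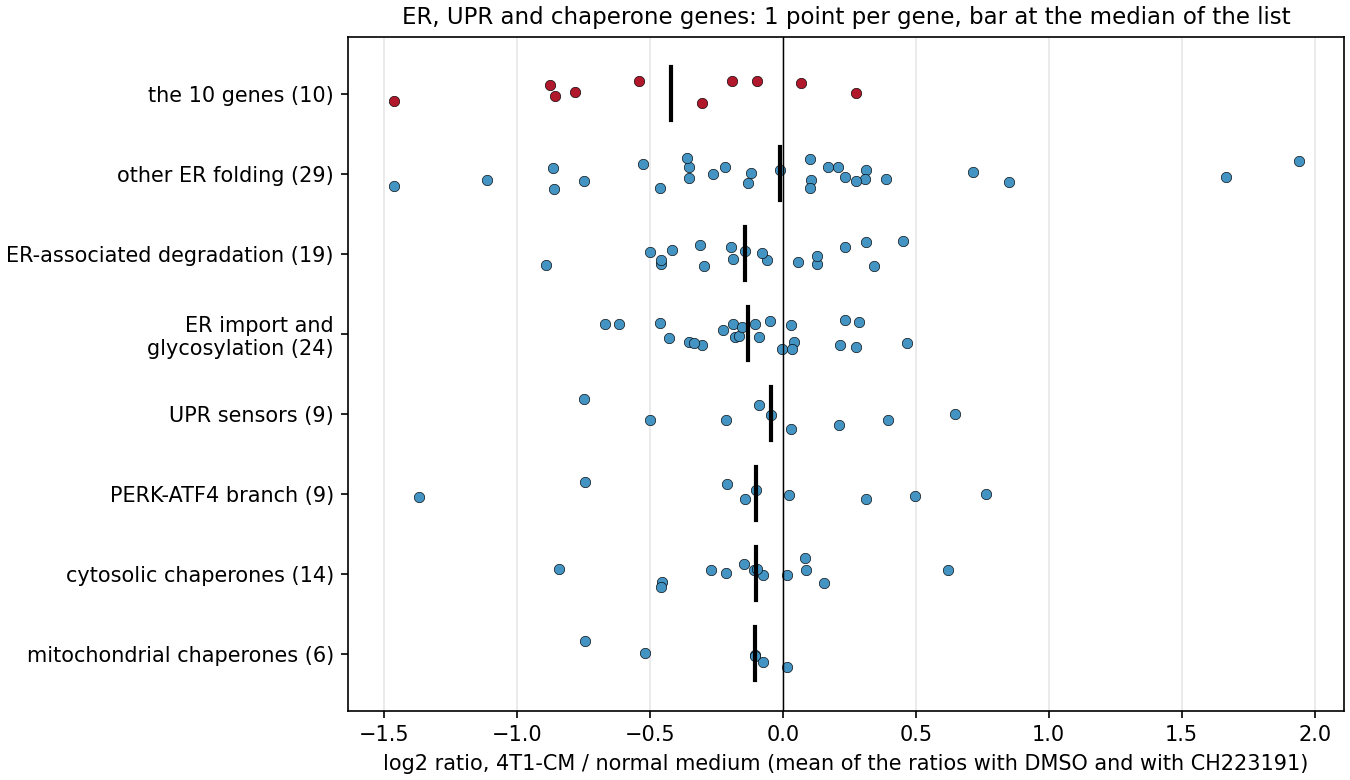
Mean of the log2 ratios of 4T1-CM to normal medium with DMSO and with CH223191 (horizontal axis) for each gene, in rows for the 10 genes (red) and 7 lists of related genes (blue, number of genes in brackets), with a bar at the median of each row. Among the 10 genes Sdf2l1 is farthest left, and in the row of other ER folding genes Ero1l is farthest right.

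In the plot of related lists, each row spreads to both sides of 0, the 10 genes included. Among the 15 genes tested whose RefSeq promoter holds ERSE, of which 4 are members, the medians were -0.39 with DMSO and -0.27 with CH223191. Of these 15, 5 were at least 1.5-fold lower in both and 1 higher. The 11 that are not members had medians of -0.19 and -0.20, and 2 of them (18.2%) were that much lower, where 9.38% of the 9837 tested genes with a promoter in the table were. The 9 genes with ERSE-II, Herpud1 among them, had medians of -0.00 and 0.14, which are the ratios of Herpud1 itself. None of the 9 was 1.5-fold lower or higher in both. The 329 genes with TGACGTG, much the largest of these sets, had medians of 0.07 and 0.01, and 5.78% of them were 1.5-fold lower and 12.2% higher in both, where 9.38% of tested genes with a promoter were lower and 1282 of 9837 higher. This grouping was chosen after the values were seen and is a description.

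The genes most like Xbp1 and Hspa5 in their course over the 4 libraries were sought among the 8322 that averaged 10 CPM or more, by the root mean square difference of centred log2 CPM. For Xbp1 they were Myo1g at 0.0066, Bnip2, Aar2, Ccdc32 and Spg7 at 0.0124, all of them nearly flat. For Hspa5 they were Slc39a11 at 0.022, Entpd1, H2afx, Rufy1 and Tmem165 at 0.024. Slc39a11 ran at 132, 123, 70.7 and 64.5 CPM in the order used above. Of the other members, Calr was nearest to Hspa5 at 0.132 and Pdia6 next at 0.144, while Xbp1 was at 0.391 and Dnajb9 farthest at 0.577. With 4 libraries such likeness is a description only.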

How the data were processed

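Raw read counts per gene, whole numbers as deposited by the authors, were used for 4 RNA-seq libraries of mouse peritoneal macrophages, 1 per condition, with coordinates of GRCm38. RNA was extracted with TRIzol and libraries were made with a NEBNext Ultra kit. The submitters' processing notes name HISAT2 2.0.5 and DESeq2, and the counter and its use of strand are not given in the sources used here for these libraries. Each library held 15535405 to 17557127 reads. A gene was kept if any 1 library gave it 10 or more reads (13715 genes), and libraries were scaled with TMM in edgeR 4.0.16 (R 4.3.3). Log2 ratios were taken with a prior count of 0.5. Intervals are exact 95% Clopper-Pearson intervals of the split of reads between 2 libraries, and those of differences between ratios use a normal approximation on 4 counts. They cover counting error only. They also treat reads as independent molecules, which PCR reads are not, so they may be too narrow even for that error. With no replicates, 2-fold and 1.5-fold differences were counted without a test.

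An additive fit over the 4 libraries (medium and inhibitor) in edgeR, and in DESeq2 1.42.0, with Benjamini-Hochberg adjustment over all genes tested in edgeR and, in DESeq2, over the 13183 (medium) and 10258 genes (inhibitor) that its own filtering left, was an alternative, as were other scalings, filters, a prior count of 5 and centring on genes of like length. The members and gene lists were chosen with earlier results of these data known. Named genes were the members and, from each list, genes at least 2-fold changed in both 4T1-CM comparisons and the 2 highest and 2 lowest by mean log2 ratio (mean of at least 10 CPM), with the 5 nearest genes to Xbp1 and to Hspa5. The cell type markers were named outside this rule, as were Hyou1, Creld2, Fkbp11, Pdia3 and Pdia5 after their values were seen. Promoters came from RefSeq (GRCm38.p6), where 9 of 10 members matched, and transcripts from GENCODE M21. Of repeated symbols the entry with most reads was used. Protein sequences were not used here.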

Additional observations from a re-analysis of the deposited data

Results flagged for a closer look

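Calr was higher with CH223191 than with DMSO in normal medium (1472 against 1228 CPM, log2 ratio 0.26) and lower in 4T1-CM (707 against 778 CPM, log2 ratio -0.14). Its 2 effects of CH223191 thus had opposite signs, each beyond counting error, and differed by -0.40 on the log2 scale (-0.398). Each effect is 1 library against 1 library, and the difference was not tested against the spread between cultures. Relative to genes of like length the effects were 0.22 and -0.13.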

How the results depend on the processing

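Each value was recomputed with DESeq2's size factors, total counts, TMM on protein-coding genes, no filter, a filter of 10 reads in all 4 libraries, a prior count of 5 and centring on genes of like length. Scaling and filters moved the median of all genes by at most 0.06 on the log2 scale. The largest shift of a member was 0.09 for 4T1-CM with DMSO, 0.21 with CH223191, 0.23 for CH223191 within normal medium and 0.04 within 4T1-CM. Under these settings the sign turned for Pdia4 in 4T1-CM with CH223191, from -0.07 to 0.06 under length centring, and for Herpud1 in 4T1-CM with DMSO, whose value ranged from -0.04 to 0.07. The count of members at least 2-fold lower in 4T1-CM was 1 with DMSO and 2 with CH223191. It was 4 and 5 at 1.5-fold, and 1 with CH223191 under length centring, where Calr was at -0.95. The additive fit called 5 in edgeR and 5 in DESeq2 (16.2% of all genes tested in edgeR, and 9.39% of the 13183 with an adjusted p in DESeq2), by a test that sets no minimum fold. In that fit Hsp90b1 had an adjusted p of 0.0909 and an unadjusted p of 0.0365 in edgeR. No paired analysis was possible because each condition has 1 library and no replicate numbers exist to pair; the additive fit does set each 4T1-CM library against the normal medium library with the same inhibitor. No replicate could be left out either. Depth limits Herpud1 most, with 300 to 355 reads a library.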
